A study of Mus musculus with 36 samples.

Results

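The loci of 7 genes of the FGF-ERK pathway, Dusp6, Spry4, Spry2, Egr1, Etv5, Etv4 and Fgf4, were followed in mouse embryonic stem (ES) cells moved from serum into a medium that holds a MEK inhibitor. The members were all ChIP-seq peaks of 14 deposited lists that fell in 1 window around each gene. The windows, on mm9, were chromosome 10 from 98.68 to 98.78 Mb for Dusp6, chromosome 18 from 38.69 to 38.82 Mb for Spry4 and chromosome 14 from 106.24 to 106.35 Mb for Spry2. They were chromosome 18 from 34.97 to 35.07 Mb for Egr1, chromosome 16 from 22.33 to 22.49 Mb for Etv5, chromosome 11 from 101.58 to 101.70 Mb for Etv4 and chromosome 7 from 152.00 to 152.10 Mb for Fgf4. Overlapping peaks were merged into regions, separately for the factors and for the histone mark. The windows held 104 of the 94085 regions: 79 of 71038 factor regions, from the 11 lists for Nanog, Sox2 and Oct4, and 25 of 23047 H3K4me3 regions, from 3 lists. The 437 peaks behind them were spread over Dusp6 (34), Spry4 (81), Spry2 (73), Egr1 (35), Etv5 (115), Etv4 (41) and Fgf4 (58).

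Except in 1 list, the cells were KH2, an established mouse ES line. They were kept in a standard medium of fetal bovine serum and LIF, for which the labels describe irradiated CF1 mouse fibroblasts as feeders on gelatin, or in 2i with LIF for 24 h or for 3 passages. H3K4me3 and Sox2 were mapped in all 3 conditions, and Oct4 (Pou5f1) in serum and at 24 h. Nanog was mapped with 1 lot of its antibody, called lot 1 here, in all 3 conditions. With another lot of the same antibody, called lot 2, it was mapped in serum cells labelled GFP_high, in KH2 at 24 h and, at 24 h, in DNMT triple knockout (TKO) ES cells, which lack DNA methyltransferases. The labels do not say which reporter GFP_high refers to, nor whether the feeders stayed in 2i. 2i also holds a GSK3 inhibitor and no serum, so the effect of MEK inhibition cannot be told apart from those changes.

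Each condition had 1 peak list, with no value per replicate, so no difference below has a replicate error or a test. The number of reads behind a peak is not known. Each peak carries the authors' fold enrichment over a control and their −log10 q. A fold was read only within its list. To follow a region across conditions, its percentile was taken among regions called in every condition of the same mark or factor (and of the same lot for Nanog), where 100 is the highest fold. Lists also ended at different depths of calling, so each count is set beside the share of all regions of the genome with the same call. In chromatin from many cells, fewer cells with a peak and a smaller peak in each cell cannot be told apart. Comparisons of serum with 24 h and with 3 passages share the serum list and are not independent.

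FGF ligands bind receptor tyrosine kinases, which act through RAS, RAF and MEK to phosphorylate ERK. ES cells make their own ligand, FGF4, and ERK activity readies them to leave the pluripotent state. ERK switches on early targets such as Egr1 and the ETS factors Etv4 and Etv5, and it switches on its own brakes, the phosphatase DUSP6 and the Sprouty proteins. Blocking MEK in 2i is known to lower transcription of these targets. Oct4, Sox2 and Nanog are the transcription factors that hold pluripotency in place, and H3K4me3 is a histone mark of active promoters whose breadth and height often go with transcription.

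The promoters of 4 of the 7 genes had an entry in RefSeq's table and lie on chromosomes that can be shown. They are printed to set the loci whose leading H3K4me3 region ranked lower in 2i, Dusp6 and Etv5, beside those whose leading region kept its rank, Spry2 and Fgf4. Each line gives the 250 bases before the gene's start, 5′ to 3′ on the gene's strand, from RefSeq on GRCm38.p6, and capitals mark the only motif match. The positions are chr10:99262981-99263230 on the plus strand for Dusp6, chr14:105896820-105897069 on the minus strand for Spry2, chr16:22439571-22439820 on the minus strand for 1 of the starts of Etv5, and chr7:144861136-144861385 on the plus strand for Fgf4.
Dusp6: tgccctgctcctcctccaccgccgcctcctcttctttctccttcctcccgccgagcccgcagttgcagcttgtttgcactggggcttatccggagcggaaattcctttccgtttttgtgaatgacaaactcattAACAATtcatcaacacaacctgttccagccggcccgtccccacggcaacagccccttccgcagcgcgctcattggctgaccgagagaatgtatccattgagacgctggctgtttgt
Etv5: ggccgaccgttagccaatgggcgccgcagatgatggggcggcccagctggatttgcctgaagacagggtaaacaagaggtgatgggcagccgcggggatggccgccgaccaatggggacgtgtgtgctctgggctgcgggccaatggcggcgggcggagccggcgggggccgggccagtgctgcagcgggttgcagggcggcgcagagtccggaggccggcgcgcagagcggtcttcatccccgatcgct
Spry2: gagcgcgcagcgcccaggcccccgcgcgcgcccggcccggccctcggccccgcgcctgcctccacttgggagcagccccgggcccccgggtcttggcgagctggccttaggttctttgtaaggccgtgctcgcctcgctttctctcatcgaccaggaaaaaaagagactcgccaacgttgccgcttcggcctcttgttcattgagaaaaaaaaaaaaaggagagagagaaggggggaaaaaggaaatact
Fgf4: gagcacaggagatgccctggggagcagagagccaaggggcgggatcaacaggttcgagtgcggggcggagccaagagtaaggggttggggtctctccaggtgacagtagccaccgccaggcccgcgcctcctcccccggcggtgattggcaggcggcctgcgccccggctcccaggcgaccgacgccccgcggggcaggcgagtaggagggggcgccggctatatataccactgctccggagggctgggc
All 4 were richer in G and C than the median of 52.4% over 32851 promoter windows of the same length, with 56.4% for Dusp6, 71.2% for Etv5, 62.4% for Spry2 and 71.2% for Fgf4. The letters searched on both strands were ATGCAAA (octamer core), ATTGTT (Sox core), CCGGAA (ETS core) and the CArG box bound by serum response factor. The 1 match was the Sox core in Dusp6, read on the opposite strand at bases 116 to 111 before the start. Over all promoter windows, 4.12% held the octamer core, 9.42% the Sox core, 12.03% the ETS core and 1.47% the CArG box. These windows are on another build than the peaks and were not placed against them.

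H3K4me3 was lower in rank and narrower in 2i at some of the loci and kept its rank at others. In each window the H3K4me3 region with the highest fold in serum, called its lead region, stood in for a promoter, since no mm9 annotation was at hand to assign regions to genes. From serum to 24 h, 4 of 19 H3K4me3 regions of the windows were called in serum alone (24.7% of all such regions of the genome), none was called at 24 h alone (6.10%) and 15 were called in both (69.2%). From serum to 3 passages, 7 of 25 were called in serum alone (20.6%), 6 at 3 passages alone (13.5%) and 12 in both (65.8%). In shares of the windows' own regions this was 21.1% in serum alone and 78.9% in both at 24 h, and 28.0%, 24.0% and 48.0% at 3 passages. With a −log10 q of at least 10, the regions in serum alone against 24 h were 8, since the 24 h list holds weaker peaks than the serum list. Over the genome that setting gave 7129 in place of 5022. The 7 windows together had 58995 bp under H3K4me3 peaks in serum, 34393 bp at 24 h and 40322 bp at 3 passages, 58.3% and 68.3% of serum. The whole lists had 70.02% and 84.4% of their serum length.

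**Figure D1:**
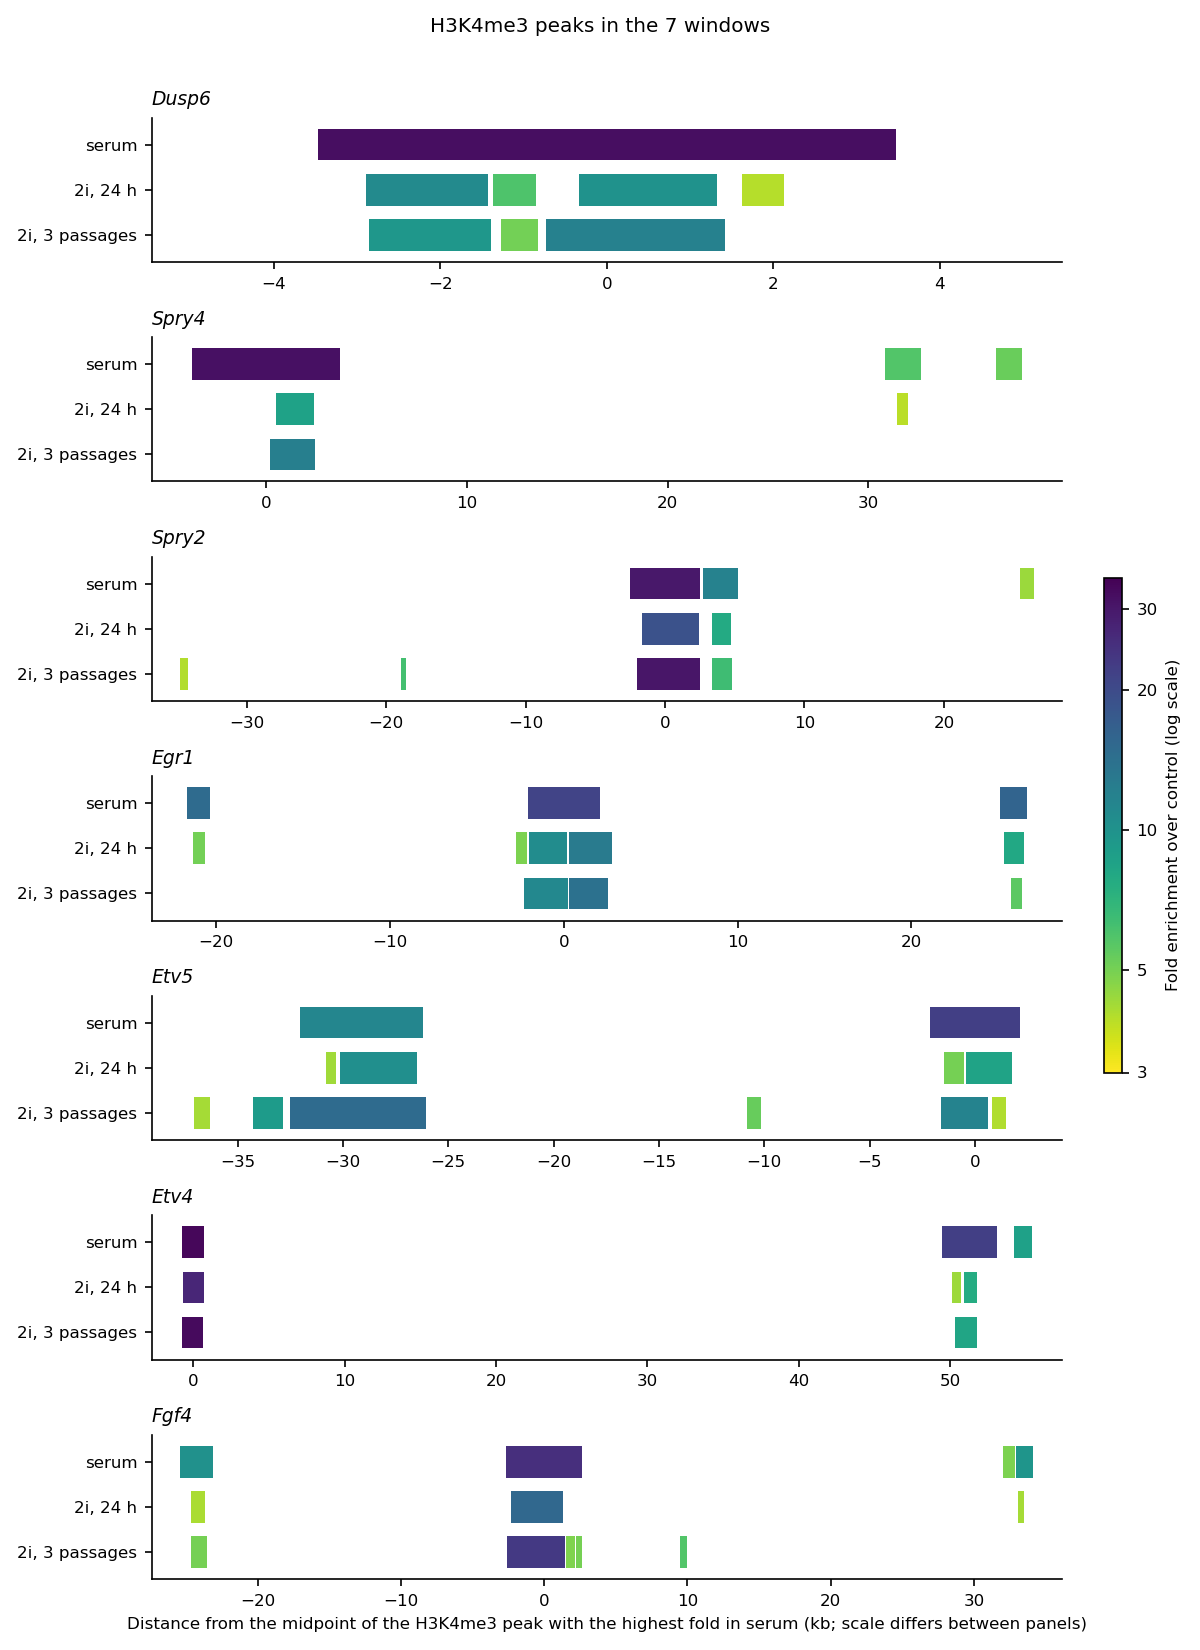
H3K4me3 peaks in the 7 windows, 1 panel per gene and 1 line per condition. The x axis is the distance in kb from the midpoint of the lead peak in serum (each panel has its own scale), a bar is a peak, and its colour is the authors' fold enrichment on a log scale. The lead peak of Spry4 covers 7382 bp in serum and 1887 bp at 24 h, while the lead peak of Etv4 covers 1430 and 1415 bp.

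Rank was compared over 13236 H3K4me3 regions called in all 3 conditions, 12 of them in the windows. Of those 12, 4 had a percentile at least 20 points lower at 24 h than in serum (13.1% of all common regions) and 5 at 3 passages (14.4%). Among regions at percentile 70 or above in serum, it was 4 of 8 at 24 h (20.1%) and 4 of 8 at 3 passages (21.2%). By width, 4 of the 12 were at least 20 points lower at 24 h (8.89%) and 5 at 3 passages (8.92%), and among those at percentile 70 or above in serum 3 of 9 at both times (10.7% and 10.6%). The 4 lower by fold at 24 h were the lead regions of Dusp6, Spry4 and Etv5 and the second region of Etv4. Lead regions were picked by their serum fold, and a region that ranks low in serum has little room to fall. Shares of common regions given below for single shifts cover every serum rank, so they are not matched for that choice.

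**Figure D2:**
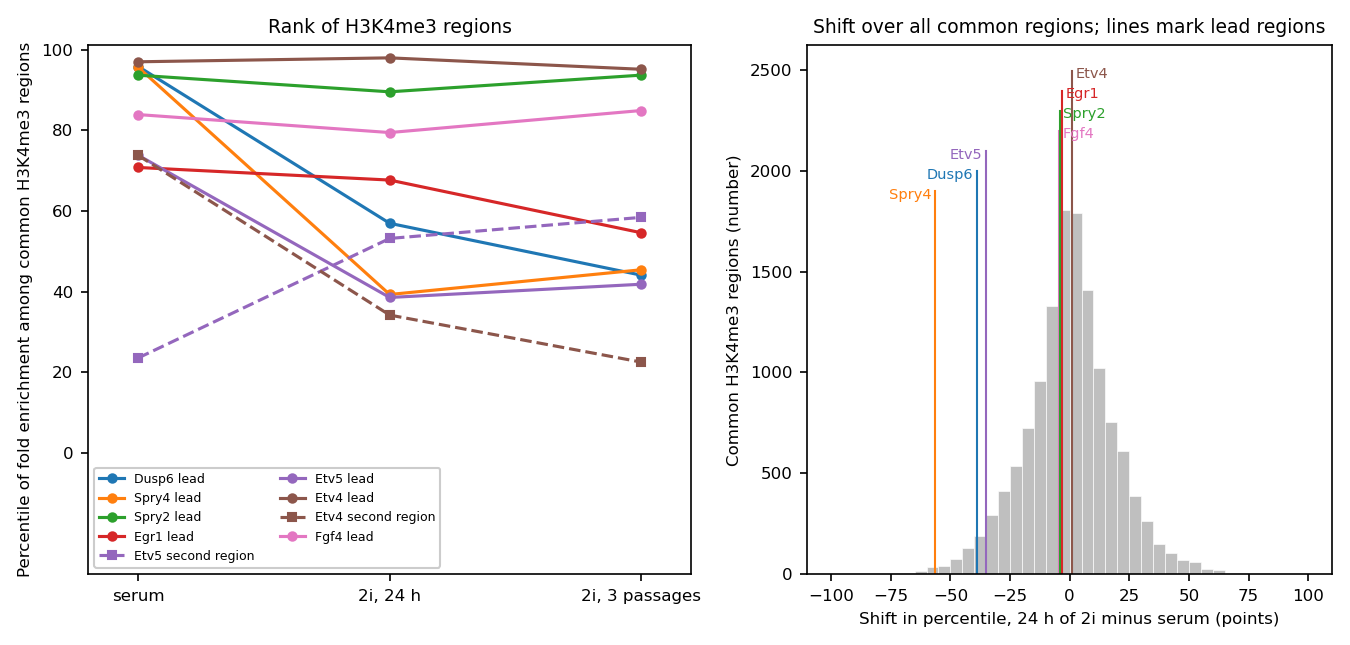
Left, percentile of fold enrichment (y axis) of the lead H3K4me3 region of each window in the 3 conditions (x axis), with dashed lines for the second regions of Etv5 and Etv4. Right, number of common H3K4me3 regions (y axis) by their shift in percentile from serum to 24 h (x axis, points), with a line at each lead region. Spry4, Dusp6 and Etv5 lie at −56.3, −38.9 and −35.2 points, and the other 4 lead regions between −4.45 and 0.97.

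Dusp6 encodes the phosphatase that dephosphorylates ERK and is among the best known readouts of the pathway. Its window held 1 H3K4me3 region, chr10:98723037-98729973. In serum it was 1 unbroken peak of 6937 bp with a fold of 31.9. At 24 h it was 4 peaks that covered 4166 bp with a highest fold of 10.9, and at 3 passages 3 peaks that covered 4064 bp with a highest fold of 12.0. The broad serum domain was thus in pieces in both 2i lists. Its fold percentile was 95.8 in serum, 56.9 at 24 h and 44.1 at 3 passages. A shift as low as its −38.9 points at 24 h, or lower, was seen in 2.62% of common regions of any serum rank. At 3 passages a shift as low as its −51.7 points was seen in 0.808%. By width it stayed among the broadest regions, at percentiles 99.7, 98.1 and 96.5. Its covered length was 60.1% and 58.6% of serum at 24 h and 3 passages, and 16.3% and 8.61% of common regions kept as little or less.

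Spry4, a Sprouty protein that dampens receptor tyrosine kinase signalling, had the lowest shift of the lead regions at 24 h. The lead region, chr18:38755832-38763213, was 1 peak in each list, of 7382 bp in serum, 1887 bp at 24 h and 2266 bp at 3 passages. Its fold was 31.6, 8.48 and 12.2 in the same order, and its percentile 95.6, 39.3 and 45.4. The peak was shorter at both ends in 2i, by 4185 bp on the side of lower coordinates and 1310 bp on the other at 24 h, and by 3869 and 1247 bp at 3 passages. What remained of it was 25.6% and 30.7% of the serum width, and 0.710% and 0.650% of common regions kept as little or less. The median over common regions was 82.0% at 24 h and 91.6% at 3 passages. Its shift in fold percentile of −56.3 points at 24 h was matched or passed by 0.431% of common regions, and that of −50.2 at 3 passages by 0.937%. Both smaller H3K4me3 regions of the window were low in serum, and neither was called in all conditions, so they have no rank across them. The region chr18:38790330-38792158 had a fold of 5.84 in serum and 3.87 at 24 h and was not called at 3 passages, and chr18:38795879-38797168 had a fold of 5.23 in serum and was not called in 2i. The whole window went from 10501 bp under peaks in serum to 2435 bp at 24 h and 2266 bp at 3 passages.

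Spry2, the Sprouty family member with a like role in feedback, kept its lead region. That region, chr14:106291320-106296311, had 1 peak of 4992, 4107 and 4489 bp in serum, at 24 h and at 3 passages. Its fold was 29.8, 18.9 and 30.6, and its percentile 93.6, 89.5 and 93.7. Here the shifts of −4.12 and 0.015 points lie inside the middle of all common regions, whose quartiles are −10.4 and 10.8 at 24 h and −11.9 and 11.5 at 3 passages. The region beside it, chr14:106296505-106299061, was narrower in 2i, with 2557 bp in serum, 1336 bp at 24 h and 1404 bp at 3 passages, at fold percentiles of 26.0, 35.3 and 11.9. Low peaks came and went further away: one at 106319298 had a fold of 4.32 in serum alone, and those at 106259006 and 106274856 had 3.97 and 6.23 at 3 passages alone.

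Egr1, an immediate early zinc finger factor that ERK switches on within minutes, had a lead region that was broader in 2i. The region, chr18:35018688-35024228, was 1 peak of 4137 bp with a fold of 21.4 in serum. It was 3 peaks covering 5323 bp with a highest fold of 12.8 at 24 h, and 2 peaks covering 4763 bp with a highest fold of 14.1 at 3 passages. Its covered length was 128.7% of serum at 24 h and 115.1% at 3 passages, and 99.2% and 90.2% of common regions had a ratio as low or lower. Its fold percentile was 70.8, 67.7 and 54.6. Of the neighbouring regions, chr18:35046577-35048119 had folds of 16.1, 8.06 and 5.55 and percentiles of 46.2, 36.4 and 6.46. Its shift of −9.71 points at 24 h lies inside the quartiles over common regions (−10.4 and 10.8), and that at 3 passages was −39.7. The region chr18:34999766-35001108 had folds of 15.0 and 5.05 in serum and at 24 h. It was not called at 3 passages and so has no rank across conditions.

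The Etv5 window, around a gene for an ETS factor of the Pea3 group, held H3K4me3 regions that went opposite ways in rank. Its lead region, chr16:22437019-22441295, had a fold of 22.1 in serum, 8.38 at 24 h and 11.6 at 3 passages, and covered 4277, 3099 and 2858 bp. Its percentile was 73.8, 38.6 and 41.8, and 3.72% and 5.70% of common regions had shifts as low or lower. Of its serum length it kept 72.5% and 66.8%, and 32.2% and 14.4% of common regions kept as little or less. The other region called in all conditions, chr16:22406645-22413080, lies towards lower coordinates, beneath the main cluster of factor peaks. It had folds of 11.3, 10.4 and 14.9 and covered 5826, 4137 and 6436 bp. Its percentile was 23.6, 53.2 and 58.4, so that it stood above the lead region in both 2i lists. Its shifts of 29.6 and 34.8 points were at or above those of 94.5% and 95.4% of common regions. Beside it, peaks at 22402081 (fold 4.16) and 22404881 (fold 9.19) were called at 3 passages alone, as was one at 22428353 (fold 5.30).

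Etv4 encodes the other Pea3 factor of the set. Its lead region by the rule, chr11:101594166-101595617, was narrow and constant, with 1430, 1415 and 1400 bp, folds of 33.4, 26.9 and 32.9 and percentiles of 97.0, 97.9 and 95.1. The second region of the window, chr11:101644336-101648001, was singled out after its values were seen. It covered 3666 bp in serum, 1513 bp at 24 h and 1466 bp at 3 passages, with folds of 22.1, 7.74 and 8.26. Its percentile was 73.8, 34.2 and 22.5, and its shifts of −39.6 and −51.2 points were matched or passed by 2.46% and 0.854% of common regions. In this it had the pattern of Dusp6 and Spry4, whereas the lead region did not. RefSeq's gene order on GRCm38.p6 places Dhx8 and Meox1 next to Etv4, and which of these regions marks which gene was not determined. A peak at 101649148 next to the second region had a fold of 8.65 in serum and was not called in 2i.

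Fgf4 encodes the ligand that ES cells secrete, and it is a classic joint target of Oct4 and Sox2. Its lead region, chr7:152046428-152051765, kept its rank, with folds of 25.2, 15.3 and 23.3 and percentiles of 83.9, 79.4 and 84.9. It covered 5328 bp in serum, 3618 bp at 24 h and 5109 bp at 3 passages. Other H3K4me3 regions of the window went both ways. A peak at 152058542 was called at 3 passages alone, with a fold of 5.85. Those nearer the edges ranked lower in 2i or were not called at every time in 2i. The region chr7:152023704-152025956 had folds of 10.2, 4.12 and 4.99 and percentiles of 18.8, 3.78 and 3.57. Peaks at 152081110 and 152082043 had folds of 4.87 and 9.70 in serum. The former was not called in 2i, and the latter had a fold of 4.18 at 24 h and was not called at 3 passages.

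Most factor regions of the windows were called in several lists. Of the 79, 29 were called in at least 6 of the 11 lists, 36.7% against 20.2% of all factor regions, and 19 in a single list, 24.1% against 41.0%. All 11 lists called 4 regions, 1 at Spry2, 1 at Egr1 and 2 at Etv5 (5.06% against 3.11%). Whether the windows differ from the genome in this was not tested. By window the 79 regions were 6 at Dusp6, 17 at Spry4, 9 at Spry2, 6 at Egr1, 23 at Etv5, 7 at Etv4 and 11 at Fgf4. Nanog together with Sox2 or Oct4, in any list, was called at 35 of them (44.3%), beside 26.2% of all factor regions.

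With Nanog lot 1, from serum to 24 h, 10 of 65 regions were called in serum alone (8.94% of such regions over the genome), 17 at 24 h alone (44.4%) and 38 in both (46.7%). To 3 passages, 16 of 61 were called in serum alone (16.8%), 13 at 3 passages alone (36.2%) and 32 in both (47.0%). With lot 2, from GFP-high serum to 24 h, 19 of 46 were called in serum alone (33.0%), 4 at 24 h alone (19.1%) and 23 in both (47.9%). The 2i-only share of the windows was 26.2%, 21.3% and 8.70% in the same order. Every KH2 list called 20 of 72 regions (21.8%). The counts moved by more than 1.5 times with the length of the lists, in the windows and, for lot 1, over the genome. At equal length, lot 1 gave 18 regions in serum alone, with 7839 over the genome in place of 4040, and 8 at 24 h alone, with 7928 in place of 20039. Lot 2 gave 10 in serum alone, with 7369 over the genome in place of 10632.

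For Sox2, from serum to 24 h, 14 of 33 regions were called in serum alone (22.4%), 7 at 24 h alone (33.3%) and 12 in both (44.2%). The Sox2 list at 24 h reaches weaker peaks than the others, and with a −log10 q of at least 10 none of the 7 was left. To 3 passages, 15 of 28 were called in serum alone (42.4%), 2 at 3 passages alone (13.8%) and 11 in both (43.8%). In serum and in neither 2i list there were 13 of 34 (18.9% over the genome), and the reverse held for 1 merged region (6.24%), at Egr1. Sox2 was called in all conditions in 10 (29.9%). Oct4, whose lists are the shortest, had 11 regions in the windows, 2 in serum alone (11.1%), 4 at 24 h alone (43.0%) and 5 in both (45.9%).

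Where a factor was called throughout, its ranks in the windows moved both ways. With Nanog lot 1, 7 of 30 regions were at least 20 percentile points lower at 24 h than in serum (19.8% of all common regions) and 4 that much higher (20.3%), and at 3 passages it was 6 (20.5%) and 6 (20.9%). With lot 2, 7 of 23 were lower (20%) and 3 higher (19.7%), with quartiles of the shift at −28.1 and 13.1 in the windows and −15.2 and 14.7 over the genome. Between the lots at 24 h 6 of 25 were lower with lot 2 (21.1%) and 5 higher (20.5%). For Sox2, 1 of 10 was lower (21.5%) and 2 higher (21.0%) at 24 h, and 3 lower (21.5%) and 3 higher (21.2%) at 3 passages. For Oct4, 0 of 5 were lower (17.4%) and 1 higher (16.8%). Whether any of these shares differs from the genome was not tested.

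**Figure D3:**
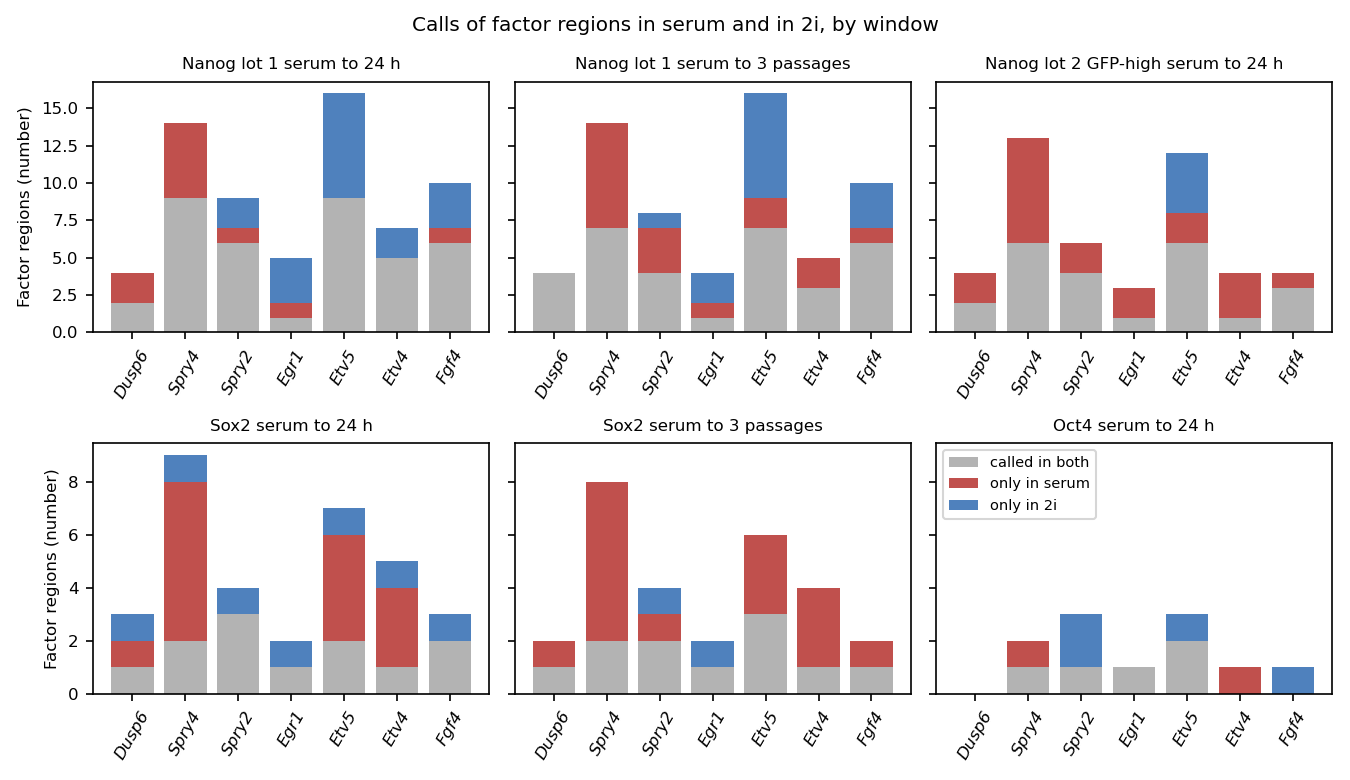
Number of factor regions (y axis) in each window (x axis) called in serum alone, in 2i alone or in both, for 6 comparisons of peak lists (panels). Spry4 has no 2i-only region in any of the 3 Nanog comparisons, while Etv5 has 7 of 16, 7 of 16 and 4 of 12. Over the genome the 2i-only shares are 44.4%, 36.2% and 19.1% in the same order.

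Dusp6 had 2 regions inside its H3K4me3 domain. The region chr10:98726980-98728652, at 1.31 kb from the midpoint of the domain, was called in all Nanog and Sox2 lists. With Nanog lot 1 its fold was 17.3 in serum, 18.9 at 24 h and 11.8 at 3 passages. With lot 2 it was 13.9 in GFP-high serum, 7.48 at 24 h and 8.505 in TKO. With Sox2 it was 8.78, 5.82 and 5.04, at percentiles of 19.4, 19.9 and 13.4 among common Sox2 regions, so Sox2 was low there in every condition. The region chr10:98725343-98726193, at −0.74 kb, had Nanog folds of 8.97, 9.29 and 4.10 with lot 1 and was called for Sox2 in serum alone, with a fold of 5.68. At 29.47 kb, chr10:98755615-98756329 had lot 1 Nanog folds of 9.72 in serum and 7.10 at 3 passages and was not called at 24 h. With lot 2 its fold was 18.4 in GFP-high serum and 6.10 at 24 h. Sox2 was called there at 24 h alone, with a fold of 4.36. No Oct4 peak lay in the window.

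The Spry4 window had fewer regions called in 2i than in serum for each of the 3 factors. With Nanog lot 1, 5 of 14 regions were in serum alone at 24 h (8.94% over the genome) and 7 of 14 at 3 passages (16.8%). With lot 2 it was 7 of 13 (33.0%). In 2i alone there were 0 in each of these comparisons (44.4%, 36.2% and 19.1% over the genome). For Sox2, 6 of 9 were in serum alone at 24 h (22.4%) and 1 in 2i alone (33.3%). At 3 passages it was 6 of 8 (42.4%) and 0 (13.8%). For Oct4, with 2 regions, 1 was in serum alone (11.1%) and 0 in 2i alone (43.0%). Of the 3 regions of all windows that Nanog held in both serum lists and in no KH2 list in 2i (1.39% of 53638 Nanog regions over the genome, 3 of 72 in the windows), all 3 were here. The opposite call was made for 1 of the 72 regions (4.63%), at Etv5.

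Those 3 regions were a site under the lead H3K4me3 peak and others to either side. The region chr18:38762658-38763495, at 3.55 kb, lies in the part of the H3K4me3 domain that was no longer called in 2i. Its Nanog fold was 29.995 in serum with lot 1 and 9.45 in GFP-high serum with lot 2, and its Sox2 fold in serum was 13.4. The region chr18:38790757-38792548, at 32.13 kb, had Nanog folds of 32.2 and 6.53 and a Sox2 fold of 7.25 in the same lists. The region chr18:38744673-38745254, at −14.56 kb, had Nanog folds of 10.7 and 9.81 and no Sox2 call. None of the 3 was called in TKO cells at 24 h either.

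Other Spry4 regions were called for Nanog in serum and in 2i, with or without Sox2. The region chr18:38751936-38753208, at −6.95 kb, had Nanog folds of 34.9, 43.2 and 21.9 with lot 1 and 24.7 and 28.3 with lot 2. In TKO cells its fold was 109, the highest of that list in the windows. Sox2 was called there in serum alone (fold 13.8), and Oct4 in serum and at 24 h (17.3 and 17.8). The region chr18:38730085-38731230, at −28.86 kb, was called in all Nanog and Sox2 lists, with Nanog folds of 26.8, 39.3 and 21.3 with lot 1, 18.9 and 18.5 with lot 2 and 85.1 in TKO. The region chr18:38795019-38797147, at 36.56 kb, held all 3 factors in serum (Nanog 33.7 and 23.3, Sox2 11.6, Oct4 17.0). In 2i it kept only Nanog, with folds of 17.9 and 12.0 with lot 1 and 8.35 with lot 2, and the H3K4me3 peak on it was called in serum alone. Its Nanog percentile with lot 1 was 86.5 in serum, 48.2 at 24 h and 49.1 at 3 passages, and with lot 2 it was 69.0 in GFP-high serum and 19.6 at 24 h.

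Among the remaining Spry4 regions, chr18:38733002-38733905 at −26.07 kb had Nanog folds of 32.0, 9.52 and 5.12 with lot 1 and percentiles of 85.1, 13.9 and 5.10. With lot 2 it was called in GFP-high serum (12.8) and not at 24 h, and Sox2 was called in serum alone (13.3). The region chr18:38760787-38762196 at 1.97 kb lies in the part of the H3K4me3 domain that was kept in 2i. Sox2 was called there in all conditions, with folds of 12.1, 7.33 and 5.07, but Nanog was not. Lot 1 Nanog had folds of 9.62 in serum and 9.18 at 24 h and no call at 3 passages. With lot 2, Nanog was called there in GFP-high serum (8.83) and in TKO (11.5) but not in KH2 at 24 h. The regions at 26.32 and 28.93 kb were called in all Nanog lists, with lot 1 folds of 16.2, 26.2 and 18.1 for the former and 27.6, 21.4 and 15.0 for the latter. Sox2 was called at the former at 24 h alone (3.68) and at the latter in serum alone (7.83).

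**Figure D4:**
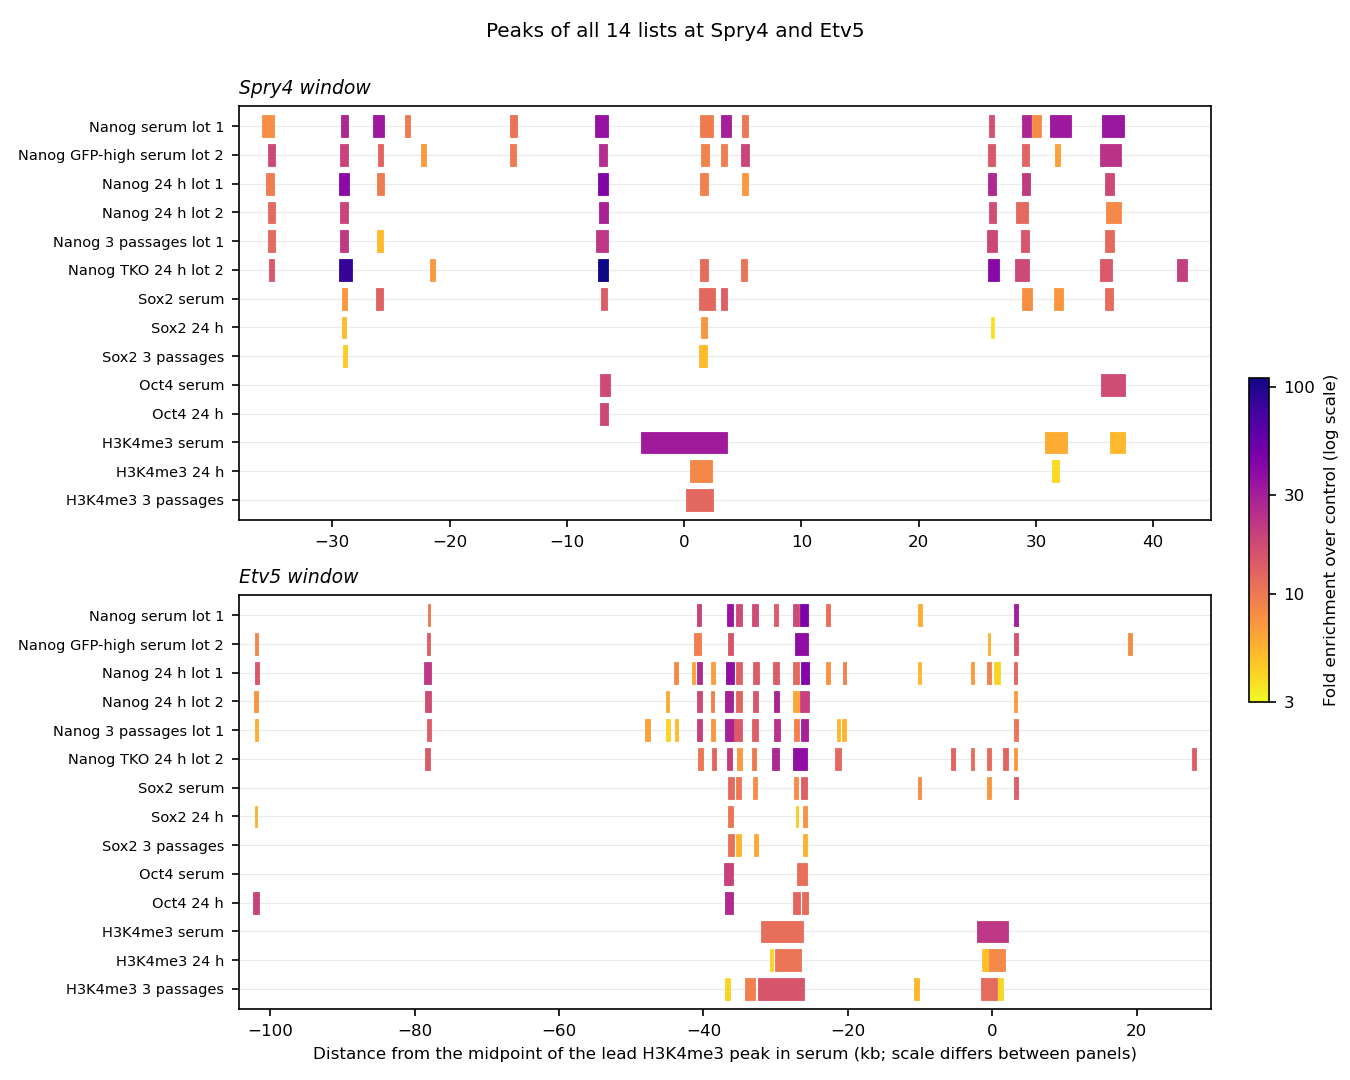
Peaks of all 14 lists in the Spry4 (top) and Etv5 (bottom) windows, 1 line per list. The x axis is the distance in kb from the midpoint of the lead H3K4me3 peak in serum, a bar is a peak, and colour is the authors' fold enrichment on a log scale. At Spry4 the Nanog and Sox2 peaks at 3.55 and 32.13 kb appear in the serum lists alone; at Etv5 the regions at −35.9 and −26.47 kb appear in all 11 factor lists.

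At Spry2, Nanog lot 1 was called in both serum and 24 h in 6 of 9 regions (46.7% over the genome) and in serum alone in 1 (8.94%). To 3 passages it was 4 of 8 in both (47.0%) and 3 in serum alone (16.8%). With lot 2 it was 4 of 6 (47.9%) and 2 (33.0%). For Sox2, 3 of 4 regions were called in both at 24 h (44.2%) and 2 of 4 at 3 passages (43.8%). The region chr14:106319330-106320797, at 26.25 kb, had a Sox2 peak that ranked high in each condition, with folds of 40.6, 20.6 and 22.9 and percentiles of 98.5, 92.5 and 97.6. Nanog folds there were 37.1, 41.9 and 26.3 with lot 1 and 37.7 and 15.5 with lot 2. Sox2 and Nanog were thus called in every condition, while the low H3K4me3 peak on the same site was called in serum alone. The region chr14:106258112-106262520, at −33.5 kb, was called in all 11 lists, with Oct4 folds of 10.1 in serum and 18.8 at 24 h, at percentiles of 2.83 and 26.8. At −42.94 kb, chr14:106250421-106251328 had a Sox2 fold of 26.6 in serum and 5.69 at 24 h and was not called at 3 passages, and its lot 1 Nanog fold was 23.7, 6.42 and not called in the same order. Oct4 was called at 24 h alone at chr14:106263567-106265274 (10.6) and at chr14:106299575-106300766 (16.8). Nanog lot 1 was called at the former in 2i but not in serum (17.2 at 24 h and 13.9 at 3 passages), though lot 2 called it in GFP-high serum (9.16). The region at 10.32 kb was called in all Nanog lists, with folds from 9.34 to 14.4, and for Sox2 at 24 h alone (4.20).

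Egr1 had its most constant region far from the lead H3K4me3 region. The region chr18:34974381-34975597, at −46.47 kb, was called in all 11 lists. Its Oct4 fold was 28.1 in serum and 59.0 at 24 h, at percentiles of 76.1 and 91.6 among common Oct4 regions. Its Sox2 folds of 20.9, 14.02 and 10.5 stood at percentiles of 80.2, 78.4 and 73.9, and its Nanog folds were 18.5, 26.7 and 18.9 with lot 1 and 31.3 and 12.0 with lot 2. At the edge of the lead H3K4me3 region, chr18:35022875-35025873 held a Sox2 peak in each 2i list and none in serum, with folds of 4.71 at 24 h and 5.00 at 3 passages. These peaks, at chr18:35023761-35024135 and chr18:35024600-35025217, do not overlap and were joined through a broader Nanog peak, so they are not 1 site. Nanog lot 1 was called there in 2i (11.4 and 7.30) and not in serum, while lot 2 called it in TKO (10.7) and not in KH2 at 24 h. H3K4me3 peaks overlapped the merged region in all conditions, but in serum they ended at base 35023526, before both Sox2 peaks. At 24 h and at 3 passages they ended at 35024228 and 35024011, before the Sox2 peak of 3 passages.

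Etv5, with the longest window (160 kb), had the most factor regions. Nanog regions in serum alone and in 2i alone were 0 and 7 at 24 h and 2 and 7 at 3 passages with lot 1, and 2 and 4 with lot 2. The 2i-only regions were 43.8% of the 16 Nanog regions of the window at 24 h with lot 1, beside 44.4% over the genome, and 43.8% of 16 at 3 passages, beside 36.2%. With lot 2 they were 33.3% of 12, beside 19.1%. The region chr16:22400198-22400850, at −38.63 kb, was in all KH2 lists in 2i and in neither serum list, with folds of 6.68 and 7.17 with lot 1 and 9.23 with lot 2, and 12.3 in TKO. Sox2 went the other way, with 4 of 7 regions in serum alone (22.4% over the genome) and 1 at 24 h alone (33.3%). At 3 passages it was 3 of 6 in serum alone (42.4%) and 0 in 2i alone (13.8%).

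The core of the Etv5 cluster was called throughout. The region chr16:22401999-22404519, at −35.9 kb, was called in all 11 lists, with Nanog folds of 34.2, 36.5 and 28.5 with lot 1. With lot 2 its fold was 15.3 in GFP-high serum and 29.0 at 24 h, at percentiles of 48.5 and 85.0. Its Sox2 folds were 12.0, 10.2 and 10.9 and its Oct4 folds 19.1 and 25.9. The region chr16:22411537-22413845, at −26.47 kb and under H3K4me3 in all conditions, was likewise in all 11 lists. It had lot 1 Nanog folds of 45.3, 42.6 and 29.7 and Sox2 folds of 13.6, 7.58 and 5.57, and its Sox2 percentile was 52.1, 39.0 and 21.6. Between them, chr16:22408647-22409780 was held by Nanog alone, with percentiles not taken for lot 2 because GFP-high serum lacked the call. Its folds were 14.3, 13.8 and 23.2 with lot 1, 28.4 at 24 h with lot 2 and 26.9 in TKO. At −32.84 kb, chr16:22405823-22406802 had lot 1 Nanog folds of 17.0, 13.9 and 13.4 and was called for Sox2 in serum (7.99) and at 3 passages (6.00).

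Near the lead H3K4me3 region of Etv5, the strongest Nanog region ranked lower in 2i with both lots. The region chr16:22442122-22442753, at 3.28 kb, had Nanog folds of 30.3, 12.4 and 10.4 with lot 1, at percentiles of 83.5, 26.8 and 40.6. With lot 2 it had 15.2 and 6.82, at percentiles of 48.4 and 8.32, and Sox2 was called in serum alone (13.7). The region at −0.47 kb, chr16:22438367-22439016, was called for Sox2 in serum alone (7.23), as was chr16:22428859-22429379 at −10.04 kb (7.99). A further region at −101.98 kb, chr16:22336759-22337592, had an Oct4 fold of 19.1 and a Sox2 fold of 5.60 at 24 h alone.

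At Etv4, Sox2 was called in serum alone in 3 of 5 regions (22.4% over the genome) and at 24 h alone in 1 (33.3%). Around the second H3K4me3 region, chr11:101647971-101650040 held all 3 factors in serum, with Nanog folds of 16.3 and 21.9, Sox2 of 9.95 and Oct4 of 22.9. In KH2 at 24 h it had Nanog with lot 1 (6.59) and not with lot 2, and neither Sox2 nor Oct4, and at 3 passages no factor was called. The adjoining region chr11:101645882-101647618 had lot 1 Nanog folds of 12.7, 7.12 and 3.95 at percentiles of 41.9, 3.98 and 0.576, and Sox2 in serum alone (7.89). Both the second H3K4me3 region and lot 1 Nanog at this adjoining region were thus lower in rank in 2i. The region chr11:101647971-101650040 was also called for Nanog in TKO cells at 24 h, with a fold of 11.4, and has no rank across conditions. Nearer the lead region, chr11:101609036-101609703 at 14.47 kb went the other way for Nanog, with lot 1 folds of 12.8, 37.3 and 23.2 and percentiles of 42.2, 86.1 and 80.6, and lot 2 percentiles of 60.5 and 73.8. Sox2 was called there at 24 h alone (4.86). At 39.0 kb, chr11:101633476-101634314 had Sox2 in all conditions (10.5, 4.06 and 4.77), and at −0.61 kb chr11:101593877-101594688 had it in serum alone (4.48).

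At Fgf4 the region under the lead H3K4me3 peak was called in 10 of the 11 lists. The region chr7:152049606-152051173, at 1.30 kb, had Sox2 folds of 15.8, 16.3 and 13.1 and percentiles of 62.8, 85.5 and 85.1. Nanog folds were 18.9, 23.8 and 19.4 with lot 1, 45.2 and 24.1 with lot 2, and 28.4 in TKO. Oct4 was called at 24 h, with a fold of 21.5, and not in serum. Of 7 regions with all 3 factors in serum (7 of 50, 13.0% over the genome) none lay here, and of 6 with all 3 at 24 h (6 of 56, 13.2%) this was 1. The region chr7:152064010-152064659, at 15.24 kb, had a lot 1 Nanog fold of 38.03 at 24 h and 8.02 at 3 passages, and was called in neither serum list nor with lot 2 in KH2 at 24 h, though TKO cells had it with that lot (10.1). Far from the lead, chr7:152007514-152008946 had lot 1 folds of 7.67, 16.9 and 8.73 and Sox2 in serum (6.43) and at 24 h (4.67).

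**Figure D5:**
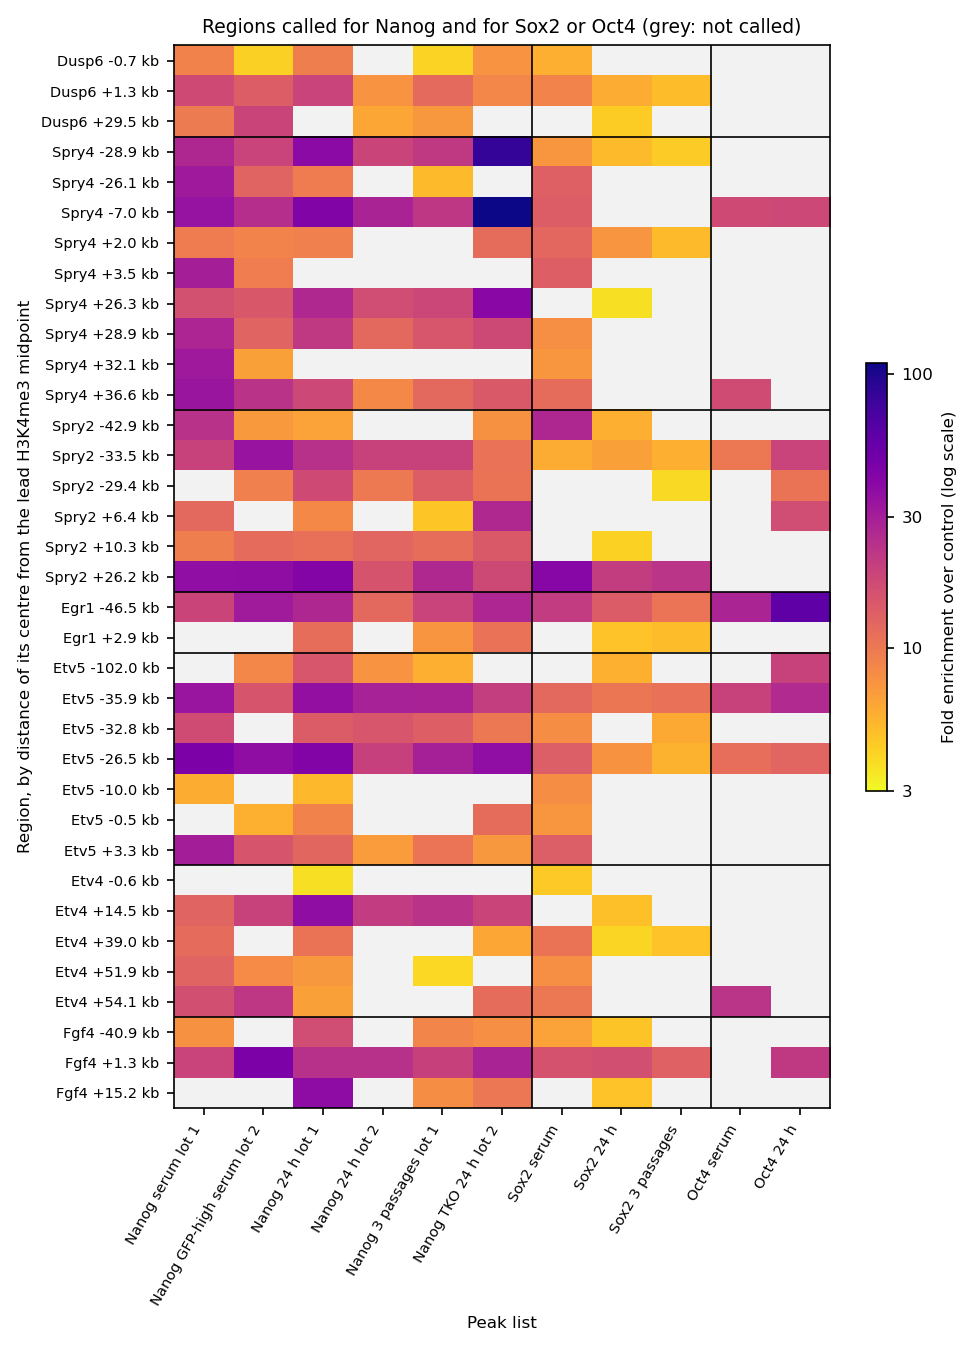
The 35 regions called for Nanog and for Sox2 or Oct4 (y axis, named by gene and by the distance of the region's centre from the midpoint of the lead H3K4me3 peak) in the 11 factor lists (x axis). Colour is the authors' fold enrichment on a log scale and grey means not called. Both Sox2 columns of 2i have more grey than the serum column at Spry4, Etv5 and Etv4.

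The lots of the Nanog antibody gave lists of different length for KH2 cells at 24 h, and the labels mark the cultures behind them as separate versions of that condition. Of 57 regions of the windows, 30 were called with lot 1 alone (51.5% over the genome), 2 with lot 2 alone (7.52%) and 25 with both (40.9%). With lot 2 at 24 h, TKO cells had 27 of 54 regions that KH2 cells lacked (51.7%), 3 were called in KH2 alone (15.1%) and 24 in both (33.2%). Just 7 of the 79 factor regions were called in TKO alone, 8.86% against 19.8% over the genome, 2 of them at Spry4 and 3 at Etv5. Over 14833 regions called in both, the Spry4 region at −28.86 kb was at percentile 70.5 in KH2 and 97.3 in TKO, and that at −6.95 kb at 85.0 and 98.8. The Spry2 region at −33.5 kb went the other way, from 72.3 to 22.9. TKO cells are another line with 1 list, so line and genotype cannot be told apart.

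The other feedback and target genes of the pathway (Dusp4, Dusp5, Spred1, Spred2, Fos, Ier3, Myc, Fgfr1, Fgfr2, Fgf5 and Il17rd) were not located, since no mm9 annotation was used here.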

How the data were processed

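ChIP-seq peak lists from 22 of the 36 samples were used. The 3 H3K27me3, 10 RNA and 1 input samples were not analysed here. Per the submitters' processing notes, mm9, MACS2, BWA 0.5.7, Bowtie 0.12.7, TopHat, Cufflinks 2.2.1 and Cuffdiff were used, with roles not given in the sources used here. Per the peak names in the deposited files, the authors pooled replicates and set them against a control, although 6 lists have 1 sample in the labels. The deposited lists give the authors' fold enrichment, a linear ratio, the q-value as −log10 q, and the offset of each summit, which was used for no result. The lowest −log10 q ran from 3.69 (Sox2 at 24 h) to 86.4 (Oct4 in serum), so lists were not called to 1 threshold. Depth is not known, and no interval could be given.

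Peaks on the main chromosomes that overlapped by at least 1 bp were merged, over the 11 factor lists and over the 3 H3K4me3 lists. Holding a peak made a region called in that list, with the fold of its highest peak. In 2 factor regions of the windows, 1 at Egr1 and 1 at Fgf4, peaks of the same factor in different lists did not overlap each other and were joined through a peak of another list. Picked for description were the H3K4me3 region with the highest serum fold in each window and regions called for Nanog and for Sox2 or Oct4. Regions called in every list of 1 medium and none of the other were picked too. Not every value of each region is given. Members and gene lists were chosen with earlier results of these data known. No test was run, because each of the 10 comparisons sets single lists side by side. Scripts used Python 3.11.15, pandas 2.3.3, numpy 2.4.6 and matplotlib 3.10.9, and the merging was tested on simulated peaks. Alternatives were a −log10 q of at least 10, trimming both lists to equal length, asking for 50% overlap, joining peaks up to 1000 bp apart, windows 25 kb longer on each side, ranking by −log10 q or by width and, added after the data were seen, a shared minimum −log10 q (the higher of both lists' minima). RefSeq tables of GRCm38.p6 gave promoter sequences and gene order only.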

Additional observations from a re-analysis of the deposited data

Results flagged for a closer look

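At 3 factor regions the Nanog lots went opposite ways between serum and 24 h of 2i. With lot 1 each had a call at 24 h but none in serum, and with lot 2 in GFP-high serum but none at 24 h. The Egr1 region chr18:34987133-34987754, at −34.01 kb from the lead H3K4me3 midpoint, had a fold of 17.1 at 24 h with lot 1 and 7.53 in GFP-high serum with lot 2. The Etv5 region chr16:22438367-22439016 had 8.95 and 5.59, and the Spry2 region chr14:106304925-106305491 had 5.22 and 6.84. All 3 were also called in TKO cells. The difference was not tested, since each condition and lot had 1 list, and the lots were used on different serum cells.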

How the results depend on the processing

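No paired analysis was possible because each condition had 1 list and no result comes from a test. Of the 20 counts of regions called in a single list, 17 stayed within 1.5 times with a −log10 q of at least 10, 16 with both lists at the larger of their lowest −log10 q, 9 at equal length, 19 with an overlap of 50%, 15 with peaks joined and 19 in the longer windows. With a −log10 q of at least 10, H3K4me3 in serum alone against 24 h went from 4 to 8, Sox2 at 24 h alone from 7 to 0 and Sox2 at 3 passages alone from 2 to 1. At the larger lowest −log10 q these 3 counts were 8, 0 and 0, and Nanog at 24 h with lot 1 alone went from 30 to 19. Over the genome that last count went from 22922 to 15445. At equal length, Nanog lot 1 in serum alone against 24 h went from 10 to 18 and at 24 h alone from 17 to 8, lot 1 at 3 passages alone from 13 to 7, and lot 2 in GFP-high serum alone from 19 to 10. There too, Sox2 at 24 h alone went to 3 and at 3 passages alone to 5, Oct4 in serum alone from 2 to 4, lot 1 alone to 13 and lot 2 alone from 2 to 4, KH2 alone from 3 to 5 and TKO alone from 27 to 16. The count in TKO alone went from 23061 to 9069 over the genome. With peaks joined, Nanog in serum alone was 6 (lot 1, 24 h), 9 against 16 (lot 1, 3 passages) and 12 (lot 2), Sox2 in serum alone against 24 h was 9 against 14, and lot 2 alone was 1. An overlap of 50% gave 1 H3K4me3 region at 24 h alone against 0, and longer windows gave 11 Sox2 regions at 24 h alone.

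The median shift in percentile of the 7 lead H3K4me3 regions was −4.45 at 24 h, −9.17 by −log10 q, −1.63 by width and −5.03 with a −log10 q of at least 10. At 3 passages it was −16.2, with −8.62, −0.627 and −17.8 in the same order. The shifts of Dusp6, Spry4 and Etv5 were negative in each of these rankings, though by width Dusp6 at 24 h shifted by just −1.63. The sign turned by width for Egr1 (3.48 at 24 h and 2.27 at 3 passages), for Etv4 at 3 passages (9.86), for Fgf4 at 3 passages (−0.057) and for Spry2 at 3 passages (−0.627). It turned by −log10 q for Etv4 at 24 h (−0.310) and for Spry2 at 3 passages (−3.40). The cause of these changes was not tested. Read depth, which would set how small a peak could be called, is not known for any list.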
